A study of Homo sapiens with 15 samples.

Results

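The 5 libraries numbered 3, 1 from each of 5 lines of C4-2 prostate cancer cells, were described against the 10 libraries numbered 1 or 2 of the same lines, out of 15 libraries in all. They were taken by the replicate number in their titles. The split was drawn because earlier results of these counts had already placed library 3 of every line lowest for ATF4 and amino acid genes and highest for proliferation genes. Every difference between libraries 3 and the others is therefore a description, given with its standard error (SE). Where genes are counted as called, the call is a threshold on a fitted model and no independent test of the split, since the same values chose it. The labels give the number and nothing else about these libraries, and what sets them apart was not tested.

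C4-2 is a castration-resistant line obtained from LNCaP, an androgen-sensitive line from a prostate cancer metastasis. Scramble is the control line, KO lacks ATGL (gene PNPLA2, the lipase that takes the first fatty acid from stored triglyceride), and KO_WT, KO_S47A and KO_S404A are the knockout with wild-type ATGL, a lipolytically inactive S47A protein or an S404A protein added back. All 5 lines, the control included, were grown with 5 mM glucose and 5% dialyzed fetal bovine serum, and poly(A) RNA was sequenced. Each genotype is 1 line. The labels call the lines isogenic, and the sources used here say nothing on cloning or pooling. The labels do not call the libraries of a line separate cultures, so the p-values below measure only how these samples vary, which may be technical.

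ATF4 is the transcription factor of the integrated stress response. When uncharged tRNA, unfolded protein in the endoplasmic reticulum, haem shortage or double-stranded RNA activates one of the kinases of translation factor eIF2 alpha, general translation slows while ATF4 protein is made, and ATF4 then switches on genes that make, import and charge amino acids, together with feedback and death genes. Cell cycle genes form another coordinated programme, in which E2F factors drive genes of DNA replication and the MuvB complexes with B-Myb and FOXM1 drive genes of mitosis.

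Depth was alike on both sides of the split. Counts in genes totalled 46147301 to 54173068 in libraries 3 and 40846694 to 64345775 in the others, and reads assigned to no gene were 15.5% to 19.3% against 13.2% to 20.6% of a library. The count-weighted mean gene length was 3583 to 3727 bases in libraries 3 and 3543 to 3886 bases in the others. Of the 10 prostate luminal markers none was at 0, and their summed level was 6728 to 7962 against 5863 to 8186 CPM (counts scaled to library size). The 13 markers of stroma, endothelium and blood summed to 27.4 to 39.2 against 31.1 to 49.9 CPM, and CD3E was at 0 in every library. PNPLA2 followed the labels, at 9.11 CPM in KO 3 and 45.3 in Scramble 3, and at 240.5, 164.5 and 493 CPM in library 3 of KO_WT, KO_S47A and KO_S404A.

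Library 3 stood clearly apart from the other pair in Scramble, KO_WT and KO_S47A, and only slightly in KO. Summed over genes, chi-square per degree of freedom is near 1 for sampling noise alone, and it was 9.95 between libraries 1 and 2 of Scramble and 70.9 and 92.5 between either of them and library 3. In KO_WT it was 8.11 against 139 and 98.2, in KO_S47A 8.60 against 170 and 182, and in KO 40 against 62 and 47. KO_S404A was the exception, with 148 between libraries 1 and 2, 239 between 1 and 3, and 140 between 2 and 3. Over the 14246 genes tested the median absolute log2 difference was 0.22 between libraries 3 and the others and 0.0682 between libraries 2 and 1. The median gene had 21.5% of its sum of squares in the contrast of library 3 with the others, 36.4% between lines and 1.45% between libraries 2 and 1. The share between lines is spread over the means of 5 lines and each of the others over a single contrast, so their sizes are not directly comparable.

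In the model with line as a covariate 6565 of 14246 genes (46.1%) had an adjusted p under 0.05 between libraries 3 and the others, which is the sense of "called" below. Of these 3188 (22.4%) were higher and 3377 (23.7%) lower in libraries 3, and 179 and 426 of them differed at least 2-fold. Library 3 lay above both other libraries of its line in 5 of 5 lines for 2318 genes (16.3%) and below both for 2194 (15.4%). All 5 libraries 3 lay above all 10 others for 844 genes (5.92%) and below them for 762 (5.35%). These shares over all genes stand beside each count of list members. Because the contrast was chosen for its values, the member counts describe it and lend it no support.

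Genes of the amino acid arm of the ATF4 response were lower in libraries 3 of every line. In bulk RNA, here and below, fewer cells that express a gene and less of its RNA per cell cannot be told apart. Over 5 lists (ATF4 and its regulators, amino acid synthesis, amino acid transporters, ATF4-responsive tRNA synthetases and stress effectors) 85 of 86 members were tested, and 72 were called lower, 3 higher and 10 neither, beside 23.7% of all genes called lower. The median log2 difference was −0.93, and −0.02 over all genes. For 56 of the 85 all 5 libraries 3 lay below all 10 others, beside 5.35% of all genes. The mean log2 CPM of the 85 genes, relative to the mean of all libraries, was −0.52, −0.76, −0.75, −0.42 and −0.82 in library 3 of Scramble, KO, KO_WT, KO_S47A and KO_S404A, and −0.12 to 0.67 in the 10 others, so the groups did not overlap.

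**Figure D1:**
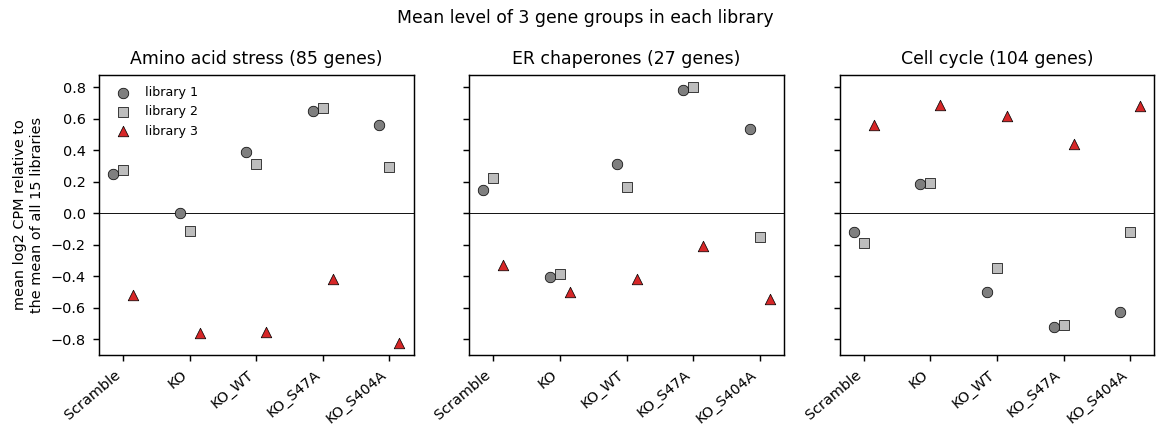
Mean log2 CPM of 3 gene groups in each library, relative to the mean of all 15 libraries (y axis), by line (x axis); each point is 1 library, with library 3 as a red triangle. Library 3 is lowest for amino acid stress and highest for the cell cycle in all 5 lines, and for the endoplasmic reticulum (ER) chaperones it lies at −0.50 in KO, close to −0.40 and −0.39 in the other KO libraries.

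ATF4 itself stood at 557, 371, 419, 574 and 351 CPM in library 3 of Scramble, KO, KO_WT, KO_S47A and KO_S404A, the order kept for all such values below. In the 10 others it lay between 854 and 1523 CPM (median 1311), so all 5 libraries 3 were below all others, 2.75-fold on average (log2 difference −1.46, SE 0.09). DDIT3, or CHOP, the death-promoting partner of ATF4, stood at 14.7, 12.9, 15.2, 27.7 and 11.2 CPM against 26.3 to 169 CPM (median 69.9, log2 difference −2.16, SE 0.24). Library 3 of KO_S47A overlapped the lowest of the others, a KO library. TRIB3, a pseudokinase that restrains ATF4 and AKT, stood at 109, 71.2, 67.9, 123 and 67.96 CPM against 191 to 540.3 CPM (median 323, −1.96, SE 0.15), with no overlap.

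Of the 19 regulators tested 15 were called lower and 0 higher, beside 23.7% and 22.4% of all genes. NUPR1, a stress cofactor of transcription, was at −1.92 (SE 0.12), ATF3 at −1.58 (SE 0.19) and CEBPB at −1.48 (SE 0.10). Their libraries 3 lay below the other pair in all 5 lines. The 4 members not called were the factors ATF5 (−0.02) and CEBPD (−0.14) and the kinase genes EIF2AK4 (0.05, SE 0.05) and EIF2AK2 (0.06). EIF2AK4 encodes GCN2, the kinase that reads uncharged tRNA, and stood at 94.1 to 111 CPM in libraries 3 and 86.3 to 109.7 CPM in the others. The gene of PERK, the kinase of the endoplasmic reticulum, EIF2AK3, was lower (−0.55, SE 0.10). These 3 kinase genes, ATF5 and CEBPD were named after their values were seen.

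Amino acid synthesis was lower across its serine, glycine and asparagine branches. Of 18 genes 16 were called lower and 1 higher, beside 23.7% and 22.4% of all genes. The higher gene was GLUL (0.16, SE 0.06, named after its value was seen), which makes glutamine. ASNS, asparagine synthetase, stood at 149, 112, 128, 192 and 96.8 CPM against 359.7 to 758 CPM (median 543), a 4.13-fold difference (log2 −2.05, SE 0.11). PSAT1 stood at 298, 247, 252, 327 and 231 CPM against 545 to 974 CPM (median 771, −1.49, SE 0.10). Neither gene overlapped between the groups. The enzymes on both sides of PSAT1 in serine synthesis, PHGDH (−0.97, SE 0.08) and PSPH (−0.94, SE 0.07), differed less. The mitochondrial folate genes SHMT2 (−1.12, SE 0.10) and MTHFD2 (−1.11, SE 0.11), which take one-carbon units from serine, lay close to each other. CTH, which makes cysteine from cystathionine (−1.98, SE 0.15), and BCAT1, which transaminates branched-chain amino acids (−1.81, SE 0.13), completed the largest differences.

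Transporters followed, with 11 of 14 tested members (15 listed) called lower and 2 higher, beside 23.7% and 22.4% of all genes. SLC7A11, the cystine importer, stood at 102, 64.7, 81.9, 146 and 62.8 CPM against 243 to 594 CPM (median 390.2, log2 difference −2.19, SE 0.14). SLC6A9, a glycine transporter, stood at 16.0, 11.1, 12.6, 26.6 and 10.8 CPM against 44.1 to 151 CPM (median 90.2, −2.63, SE 0.15). In both genes the highest library 3 was that of KO_S47A, and it was still below every other library. SLC7A5, the leucine importer (−1.08, SE 0.07), and its partner chain SLC3A2 (−1.003, SE 0.11) differed about alike. The 2 higher members, SLC36A4 (0.58, SE 0.10) and SLC25A22 (0.22, SE 0.07), were named after their values were seen. The former is a lysosomal and plasma membrane amino acid transporter and the latter a mitochondrial glutamate carrier.

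The cytosolic tRNA synthetases, which charge each tRNA with its amino acid, fell into 2 sets. These had been listed apart from knowledge of ATF4 targets, but with earlier results of these counts known. Of 14 ATF4-responsive members (the tRNA exporter XPOT included) 13 were called lower and 0 higher (median −0.80). For all 13 of these all 5 libraries 3 lay below all 10 others, beside 5.35% of all genes. Of the 9 other cytosolic synthetase genes 4 were called higher and 2 lower (median 0.10), beside 22.4% and 23.7% of all genes. GARS, for glycine, stood at 247, 193, 185, 227 and 170.1 CPM against 386 to 675 CPM (median 524, log2 difference −1.38, SE 0.09). KARS, for lysine, stood at 296, 313, 276, 269 and 288 CPM against 246 to 297 CPM (median 263, 0.12, SE 0.05), and its groups overlapped. CARS (−1.32), SARS (−1.14), AARS (−0.96) and WARS (−0.95) were lower, each with an SE of at most 0.12. VARS, named after its value was seen, was the 1 ATF4-responsive member not called (0.11, SE 0.08). The 17 mitochondrial synthetases had 2 called higher and 5 lower, with a median of 0.01.

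The promoters of these 2 sets of synthetases differed in letters that played no part in choosing the libraries, though the first set was itself listed as ATF4 targets. The windows run from 250 bases before to 50 bases after the RefSeq start of a gene (GRCh38.p14) and were found for 11244 of the 14246 genes tested. The C/EBP-ATF response element, searched as TGATGNAA on both strands, stood in 6 of 11 windows of ATF4-responsive synthetases, in 0 of 8 windows of the other cytosolic synthetases and in 4 of 11 windows of amino acid synthesis genes. Of the other lists it stood in 3 of 12 windows of transporters, 2 of 15 of ATF4 regulators, 2 of 16 of stress effectors, 1 of 14 of mitochondrial synthetases and 1 of 26 of chaperones. It stood in 1.8% of windows of all genes tested and in 3.1% of those called lower. Below are 60 bases of 5 promoters, chosen to show the element in a synthesis gene, a synthetase, an effector, a regulator and a chaperone list member, printed on the gene's own strand with the element in capitals; in CHAC1, AARS and HERPUD1 it reads on the opposite strand.
ASNS (chr7:97872443-97872502, minus strand): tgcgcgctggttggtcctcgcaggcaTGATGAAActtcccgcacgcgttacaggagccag
AARS (chr16:70289660-70289719, minus strand): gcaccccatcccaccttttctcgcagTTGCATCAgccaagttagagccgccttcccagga
CHAC1 (chr15:40953236-40953295, plus strand): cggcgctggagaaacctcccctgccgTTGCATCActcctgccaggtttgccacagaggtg
ATF3 (chr1:212565190-212565249, plus strand): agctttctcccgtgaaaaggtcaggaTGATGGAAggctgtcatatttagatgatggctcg
HERPUD1 (chr16:56931940-56931999, plus strand): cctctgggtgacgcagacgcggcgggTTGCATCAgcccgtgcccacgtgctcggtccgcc
A match is a run of letters and not a measured binding site, and no match says only that these letters are not in the window.

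The effectors of the response differed most. Of 20 genes 17 were called lower and 0 higher, beside 23.7% and 22.4% of all genes. Their median log2 difference was −1.24. CHAC1, which degrades glutathione, stood at 14.5, 8.68, 10.2, 20.8 and 6.50 CPM against 36.8 to 98.9 CPM (median 74.6), 6.11-fold lower (log2 −2.61, SE 0.17). SESN2, a sensor that holds back the growth kinase complex mTORC1, stood at 25.3, 17.8, 18.9, 28.7 and 16.4 CPM against 49.0 to 149.9 CPM (median 89.3, −2.07, SE 0.14). Both lay below all others in all 5 libraries 3. DDIT4, another inhibitor of mTORC1, was 4.23-fold lower (−2.08, SE 0.14). The secreted stress signal GDF15 stood at 262, 113, 181, 429.5 and 100.2 CPM against 349 to 971 CPM (median 788, −1.85, SE 0.18), and library 3 of KO_S47A overlapped the KO libraries. STC2, a secreted glycoprotein of stress (−1.47, SE 0.12), and BBC3, the death gene PUMA (−1.43, SE 0.12), were lower too. LAMP3, a lysosomal membrane protein, stood at 0.255 to 0.847 CPM in libraries 3 and 1.78 to 27.9 CPM in the others.

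**Figure D2:**
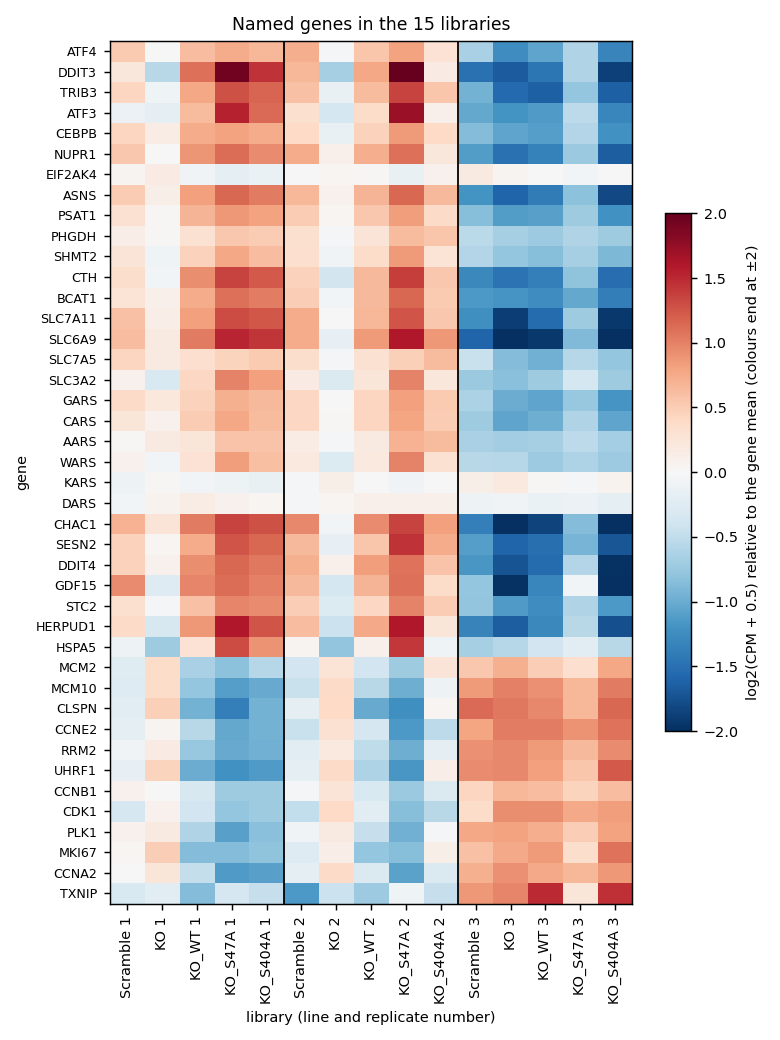
log2(CPM + 0.5) of 42 named genes (rows) in the 15 libraries (columns, grouped by replicate number and split by black lines), each gene relative to its own mean; colours end at −2 and 2. The 5 columns on the right, libraries 3, are mostly blue for ATF4 and its targets and red from MCM2 to TXNIP, while EIF2AK4, KARS and DARS stay near white throughout.

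Chaperones and other genes of the unfolded protein response in the endoplasmic reticulum were lower as well, though unevenly between lines. Of 27 genes 23 were called lower and 0 higher (median −0.52), beside 23.7% of all genes called lower. Library 3 lay below both others in 5 of 5 lines for 9 of them, beside 15.4% of all genes. All 5 libraries 3 lay below all 10 others for 2 of them, near the 5.35% of all genes. HERPUD1, a factor of endoplasmic reticulum degradation, stood at 97.8, 78.8, 102, 168 and 72.9 CPM against 184 to 756 CPM (median 398, log2 difference −1.98, SE 0.17), with no overlap. DNAJB9, a co-chaperone, was at −1.58 (SE 0.18). HSPA5, or BiP, the main chaperone of the compartment, stood at 1743, 1871, 2127, 2375 and 1877 CPM against 1603 to 7374 CPM (median 2924, −0.70, SE 0.19), and its lowest values were the other 2 KO libraries. The ER stress response element, searched on both strands as CCAAT and CCACG with 9 bases of any kind between them, stood in 7 of 26 chaperone windows and in 0.1% of windows of all genes tested. It is shown in capitals in HSPA5 and XBP1, a chaperone and a transcription factor of the list.
HSPA5 (chr9:125241376-125241435, minus strand): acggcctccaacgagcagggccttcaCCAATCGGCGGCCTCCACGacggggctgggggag
XBP1 (chr22:28800588-28800647, minus strand): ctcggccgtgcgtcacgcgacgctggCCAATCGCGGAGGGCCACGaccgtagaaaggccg

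Cell cycle genes were higher in libraries 3 of every line. All 51 genes of DNA replication and G1/S and all 53 of mitosis and G2/M were tested and called higher, beside 22.4% of all genes, with median log2 differences of 0.88 and 0.92. Each of the 104 lay above both other libraries in 5 of 5 lines, beside 16.3% of all genes. For 86 of them all 5 libraries 3 lay above all 10 others, beside 5.92% of all genes. The mean of the 104 genes relative to all libraries was 0.56, 0.68, 0.61, 0.44 and 0.68 in libraries 3 and −0.72 to 0.19 in the others, with the 2 KO libraries highest among the others.

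Among replication genes CLSPN, claspin, which holds stalled forks in the checkpoint, stood at 57.9, 54.6, 51.5, 41.8 and 58.5 CPM against 9.82 to 36.7 CPM (median 18.01), 2.86-fold higher (log2 1.52, SE 0.16). CCNE2, the cyclin E2 that starts S phase, stood at 69.7, 81.97, 82.1, 74.8 and 84.9 CPM against 17.7 to 49.3 CPM (median 28.4, 1.48, SE 0.12). RRM2, the ribonucleotide reductase subunit that limits deoxynucleotide supply, stood at 322, 329.8, 307, 267 and 327 CPM against 84.4 to 196 CPM (median 133, 1.30, SE 0.12). None of these 3 genes overlapped between the groups, and the lowest CLSPN and RRM2 among libraries 3 were those of KO_S47A. UHRF1, which carries DNA methylation through replication (1.36, SE 0.17), and MCM10, which helps fire origins (1.36, SE 0.13), were of like size. The helicase subunit MCM2 was at 0.85 (SE 0.11) and its factor E2F1 at 1.00 (SE 0.10).

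Mitotic genes differed by similar amounts. CDK1, the mitotic kinase, stood at 359.6, 533, 536, 476 and 498 CPM against 156 to 371 CPM (median 207, log2 difference 1.16, SE 0.10), and library 3 of Scramble fell just inside the range of the others. PLK1, the polo kinase of mitotic entry, stood at 212, 217, 207, 176 and 217 CPM against 58.01 to 141 CPM (median 104, 1.09, SE 0.12). MKI67, the proliferation antigen Ki-67, stood at 256, 286, 305, 216 and 362 CPM against 92.2 to 239 CPM (median 120.5, 1.10, SE 0.15). PLK1 did not overlap, while MKI67 of KO_S47A 3 lay below that of the highest other library. CCNA2, cyclin A2, was at 1.19 (SE 0.14), and FOXM1, the factor itself, had the smallest difference of the mitotic list (0.56, SE 0.11).

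The promoters of the 2 cell cycle lists held different letters, though the lists cover the programmes that E2F factors and MuvB complexes are known to drive. An E2F site, searched as TTTCCCGC, TTTCGCGC, TTTGCCGC or TTTGGCGC on both strands, stood in 23 of 42 replication windows (54.8%) and in 4 of 47 mitotic windows. It stood in 5.3% of windows of all genes tested and in 8.0% of those called higher. The cell cycle homology region, searched as TTTGAA or TTCGAA on both strands, stood in 34 of 47 mitotic windows (72.3%) and in 2 of 42 replication windows. Its share was 11.1% over all genes tested and 15.3% over those called higher. The windows are those described above, and matches of 1 motif may overlap. The stretches below show them in 2 replication and 3 mitotic genes, with each match in capitals.
E2F1 (chr20:33686386-33686445, minus strand): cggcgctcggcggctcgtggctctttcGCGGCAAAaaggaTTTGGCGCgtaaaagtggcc
MCM6 (chr2:135876496-135876555, minus strand): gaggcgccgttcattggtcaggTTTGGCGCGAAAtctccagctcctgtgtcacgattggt
PLK1 (chr16:23678829-23678888, plus strand): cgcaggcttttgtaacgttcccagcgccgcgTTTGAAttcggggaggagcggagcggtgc
CDC20 (chr1:43358890-43358949, plus strand): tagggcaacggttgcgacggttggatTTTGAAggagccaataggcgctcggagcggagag
MKI67 (chr10:128126424-128126483, minus strand): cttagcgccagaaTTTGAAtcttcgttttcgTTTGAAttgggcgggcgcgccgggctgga
In MCM6 the capitals hold overlapping matches on the 2 strands, and MKI67 holds 2 matches of the homology region. CDC20, the activator of the anaphase-promoting complex, was at 1.08 (SE 0.13) and MCM6, a helicase subunit, at 1.01 (SE 0.10), both named for their sequences.

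The G1 cyclins, their kinases and the cell cycle inhibitors were mixed. Of 24 tested members (25 listed) 10 were called higher, 9 lower and 5 neither, beside 22.4% higher and 23.7% lower of all genes. CDK2, the partner of cyclin E, stood at 131, 145, 143, 127 and 146 CPM against 55.9 to 106 CPM (median 76.1, log2 difference 0.89, SE 0.08), with no overlap. SKP2, which sends the inhibitor p27 to degradation, was at 0.63 (SE 0.07). CCNG2, an atypical cyclin of arrested cells, stood at 39.1, 24.6, 25.7, 40.1 and 18.7 CPM against 41.6 to 71.3 CPM (median 53.99, −0.90, SE 0.10), and it did not overlap either. The inhibitors CDKN1A, or p21 (−0.51, SE 0.13), and CDKN1B, or p27 (−0.45, SE 0.07), and RBL2, the pocket protein of the DREAM complex (−0.37, SE 0.05), were lower. CCND1, cyclin D1, was not called (0.17, SE 0.09). Other inhibitors were higher, among them CDKN2C, or p18 (0.88, SE 0.09), and RBL1, the pocket protein p107 (0.85, SE 0.09).

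**Figure D3:**
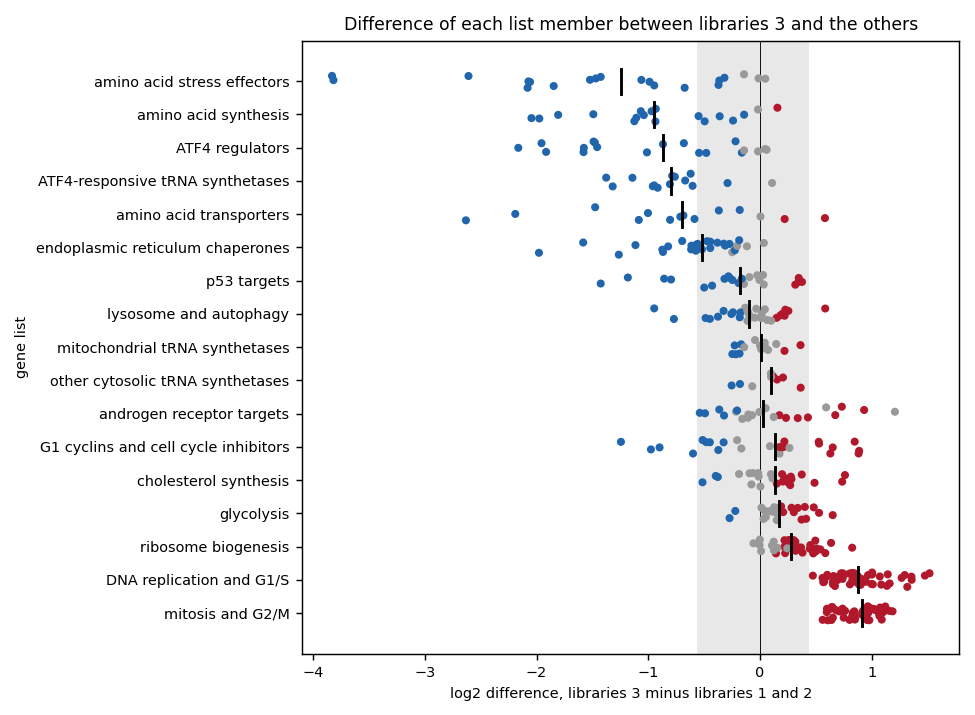
log2 difference between libraries 3 and the others (x axis) for each tested member of 17 lists (rows); points are genes, blue where called lower, red where called higher and grey where not called, the black bar is the list median and the grey band runs from the 10th to the 90th percentile of all genes (−0.56 to 0.43). Every point of both cell cycle lists lies to the right of 0, and most points of the first 5 lists lie to the left of the band.

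Several growth programmes differed less, beside 22.4% of all genes called higher and 23.7% lower. Of 38 ribosome biogenesis genes 27 were called higher and 0 lower (median 0.28), and TCOF1, treacle, which supports transcription of ribosomal RNA genes, was the furthest (0.83, SE 0.12). Of 79 cytosolic ribosomal protein genes 0 were called higher and 20 lower (median −0.11), the latter near the 23.7% of all genes. Of 22 glycolysis genes 11 were called higher and 2 lower (median 0.17), with LDHA, lactate dehydrogenase, at 0.65 (SE 0.09). Of 24 cholesterol synthesis genes 12 were higher and 3 lower (median 0.13), while HMGCS1 (−0.08) was not called. Of 13 heat shock genes 7 were higher and 0 lower (median 0.19), with the cytosolic chaperone HSP90AA1 at 0.53 (SE 0.07), opposite in direction to the chaperones of the endoplasmic reticulum.

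Other stress lists were mixed, beside 22.4% of all genes called higher and 23.7% lower. Of 22 p53 targets 12 were called lower and 4 higher (median −0.18), and the lower ones included BBC3 and GADD45A (−1.18, SE 0.14), which ATF4 and CHOP also drive. Of 21 tested NRF2 targets (24 listed) 11 were lower and 2 higher (median −0.23), with SLC7A11, also on the transporter list, furthest and the malic enzyme ME1 at −0.83 (SE 0.07). Of 17 tested hypoxia genes (18 listed) 8 were lower and 3 higher (median −0.22), and VEGFA (−1.06, SE 0.10) and DDIT4 also stood on the list of stress effectors. Of 29 lysosome and autophagy genes 10 were lower and 7 higher (median −0.10), with GABARAPL1, an autophagosome protein, at −0.77 (SE 0.10). Of 18 tested immediate early genes (23 listed) 3 were lower and 2 higher (median 0.01), and of 15 tested replication-dependent histone genes (20 listed) 5 were higher and 2 lower (median 0.26). Histone mRNA ends without a poly(A) tail, so its counts in poly(A) libraries are a partial measure.

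TXNIP, an arrestin that lowers glucose uptake and is induced by the glucose sensor MondoA, stood apart from its list. It stood at 9.15, 9.89, 14.4, 5.77 and 14.1 CPM in libraries 3 against 1.88 to 4.48 CPM (median 3.38, log2 difference 1.68, SE 0.20), with no overlap. Of the other 3 genes of that list ARRDC4 (0.05, SE 0.09) and MLXIP (0.06, SE 0.10) were not called and 1 was lower. Glucose was given as 5 mM for all 15 libraries.

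Genes of prostate identity went both ways. Of 10 luminal markers 4 were called higher and 1 lower (median 0.01), and of 22 androgen receptor targets 7 were higher and 5 lower (median 0.02, range −0.54 to 1.21), beside 46.1% of all genes called in either direction. FKBP5, a chaperone of steroid receptors, was at 0.73 (SE 0.11), KLK3, which encodes prostate-specific antigen, at 0.34 (SE 0.08), and TMPRSS2, a surface protease, was not called (−0.21, SE 0.09). Of 6 tested markers of stroma, endothelium and blood (13 listed) 2 were higher and 2 lower, all with a mean under 20 CPM.

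Ranked by the same contrast, the genes that differed most stood partly inside and partly outside these lists. Among genes that averaged 10 CPM or more, 24 of the 50 with the furthest negative difference (−1.29 and beyond) were in the 5 amino acid lists and 2 in the chaperone list, and 23 of the 50 furthest positive (1.06 and beyond) were in the 2 cell cycle lists. Of the 14246 genes tested at any level, the amino acid, chaperone and cell cycle lists held 85, 27 and 104. The ranking used the values that chose the split, and the lists were drawn with earlier results known, so these counts lend no support. The 8 lowest were BEST1, DUSP27, SLC6A9, CHAC1, S100P, SLC7A11, DDIT3 and TSC22D3. TSC22D3, or GILZ, a leucine zipper protein that glucocorticoids induce, stood at 52.5, 24.01, 26.8, 51.95 and 17.8 CPM against 76.9 to 178 CPM (log2 difference −2.09, SE 0.17). BEST1, a chloride channel (−2.81, SE 0.21), and DUSP27, an atypical phosphatase (−2.67, SE 0.20), were lower in libraries 3 of all 5 lines. The 8 highest were CLSPN, CCNE2, UHRF1, MCM10, FAM111B, CDC25A, E2F2 and RRM2, most of which act in DNA replication or its onset.

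Libraries 1 and 2 were compared in the same way, and this contrast had no part in the choice. By edgeR 0 of 14246 genes were called between them over the 5 lines, and 399 (2.8%) had an unadjusted p under 0.05, while DESeq2 called 0 with 483 unadjusted. The count at an unadjusted p under 0.05 rose to 1251 without KO 1 and to 1027 without the line KO, with 0 called in either. No gene of the amino acid, chaperone or cell cycle lists reached an unadjusted p under 0.05 with all libraries. Their small differences nonetheless leaned the way of libraries 3, since 53 of 53 mitotic and 46 of 51 replication genes were higher in libraries 2 than in libraries 1, as were 18 of 85 amino acid genes and 1 of 27 chaperones, beside 6918 of 14246 genes in all. ATF4 differed by −0.05 (SE 0.10) between libraries 2 and 1, ASNS by −0.10 (SE 0.12) and CDK1 by 0.09 (SE 0.13). In KO_S404A, where libraries 1 and 2 were far apart, the median cell cycle gene was 0.51 higher in library 2 than in library 1, the median amino acid gene 0.30 lower (−0.30) and the median chaperone 0.60 lower (−0.60). In the 4 other lines these medians lay between −0.07 and 0.15 for the cell cycle, −0.11 and 0.07 for amino acid genes and −0.14 and 0.06 for chaperones.

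The size of the difference varied between lines. The median amino acid gene lay at −0.71 in Scramble, −0.57 in KO, −0.998 in KO_WT, −1.02 in KO_S47A and, furthest, −1.07 in KO_S404A, as library 3 minus the mean of the other pair. The median cell cycle gene lay at 0.70, 0.50, 1.03, 1.13 and 1.03 in the same order. Libraries 1 and 2 differed more between lines than libraries 3 did, with means of the amino acid genes over −0.12 to 0.67 against −0.82 to −0.42. KO had the lowest amino acid and the highest cell cycle levels among libraries 1 and 2, and KO_S47A the reverse. With all 15 libraries and no account taken of the number, edgeR called a difference among lines for 338 of 14246 genes (2.37%), 1 of them among the 85 amino acid genes and 0 among the 104 cell cycle genes. With the replicate number as a block, 3256 of 14246 genes (22.9%) were called among lines, with 53 of the 85 amino acid genes and 88 of the 104 cell cycle genes among them.

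Whether this size varied was examined with a line by library 3 term, whose error comes from libraries 1 and 2 of the same line. Each line has 1 library 3, so this term cannot tell a difference between lines from a difference between single libraries. With all 15 libraries edgeR called 0 of 14246 genes, and 748 (5.25%) had an unadjusted p under 0.05. The result turned on KO_S404A, since 401 of 14435 genes (2.78%) were called without its library 1 and 690 of 14462 (4.77%) without its library 2. Leaving the whole line out, which was tried after seeing the data, 507 of 14117 (3.59%) were called. In all 3 of these settings 357 genes were called, a share below the 2.78% called without KO_S404A 1. Among them were 19 of 27 chaperone genes, 31 of 53 mitotic genes, 20 of 51 replication genes and 8 of 20 stress effectors. The other amino acid lists held fewer, with 4 of 19 ATF4 regulators, 4 of 18 synthesis genes, 1 of 14 transporters and 2 of 14 ATF4-responsive synthetases. None of the 9 other cytosolic or 17 mitochondrial synthetases was called in any of the 3.

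HSPA5 showed the variation most plainly. Library 3 minus the other pair was −0.65 in Scramble, 0.18 in KO and −0.57 in KO_WT, and it reached −1.58 in KO_S47A and −0.96 in KO_S404A. By edgeR the adjusted p of the line by library 3 term was 0.878 with all 15 libraries, 0.000538 without KO_S404A 1, 7.97e-05 without KO_S404A 2 and 0.000217 without the line. The 2 other KO libraries stood at 1694 and 1603 CPM and those of KO_S47A at 6848 and 7374 CPM, while the 5 libraries 3 stood within 1743 to 2375 CPM. HYOU1, another chaperone (−0.53, 0.06, −0.49, −1.37 and −0.82), followed the same order of lines. CLSPN (1.35, 0.62, 1.98, 2.01 and 1.62) and TRIB3 (−1.47, −1.45, −2.35, −2.10 and −2.49) kept 1 direction in all lines, with adjusted p of 0.899 and 0.878 over all 15 libraries and at most 0.00116 and 0.00656 in the 3 other settings.

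**Figure D4:**
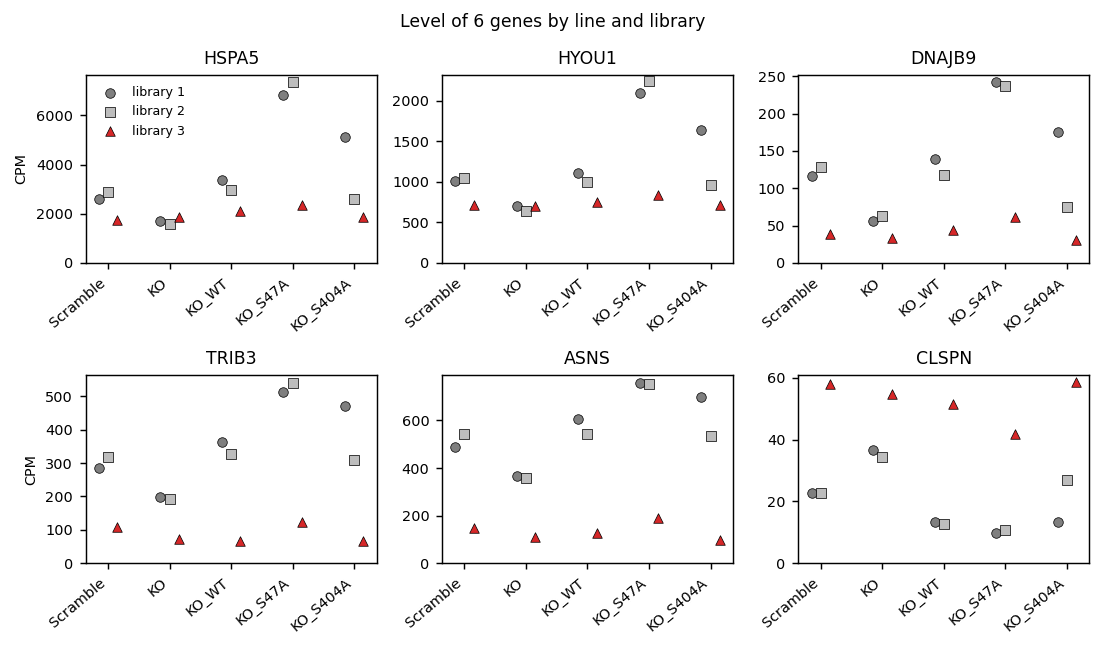
CPM (y axis, linear from 0) of 6 genes in each line (x axis); each point is 1 library, circles library 1, squares library 2 and red triangles library 3. For HSPA5 and HYOU1 the libraries 3 lie within narrow ranges (1743 to 2375 and 700.1 to 841 CPM) while libraries 1 and 2 run from KO, lowest, to KO_S47A, highest, and KO_S404A 2 lies apart from KO_S404A 1.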

How the data were processed

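The authors deposited 1 table per library with read counts per gene (whole numbers, not normalized) and FPKM values scaled by the authors to gene length and to all entries. FPKM recomputed from the counts deviated by a relative 1.4e-13 at most and served only for gene lengths. The submitters' processing notes name CASAVA and STAR. Build, annotation and counting strand were not given in the sources used here. Reads of overlapping or antisense genes therefore cannot be told apart, and near-identical families (histones, HSPA1A and HSPA1B, KLK genes) are uncertain. Of 20806 gene entries 20623 matched RefSeq identifiers, and 5 entries of unassigned reads entered neither library sizes nor tests.

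In R 4.3.3 with edgeR 4.0.16 (limma 3.58.1), filterByExpr by line kept 14246 genes, and TMM scaled the library sizes. Quasi-likelihood models held line and library 3 (9 residual degrees of freedom), line and a 3-level replicate number (8), their interaction (5) or line alone (10). Adjusted p-values are Benjamini-Hochberg over all genes tested, called under 0.05, and the SE is the absolute log2 difference over the square root of F. CPM are TMM-scaled, and values per line and list means use log2 CPM with a prior count of 2. The fits were tested on simulated data. The alternatives were RLE size factors, no filter, DESeq2 1.42.0, other reference libraries, lines or libraries left out and a replicate block. The median SE of libraries 3 minus the others was 0.0791, which reflects variation between libraries as well as depth.

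The libraries, the gene lists and the tests were chosen with earlier results of these data known. Genes named are the marked members of each list, the 3 furthest members in the direction of its median with a mean of at least 5 CPM, the 8 highest and 8 lowest called genes of at least 10 CPM whose library 3 lay outside both others in all 5 lines, and PNPLA2. Members named beyond that rule were chosen after their values were seen. Promoter windows come from RefSeq (GRCh38.p14), independent of the authors' build, and were matched by gene identifier.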

Additional observations from a re-analysis of the deposited data

Results flagged for a closer look

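Scramble 3 stood away from the 4 other libraries 3 in androgen receptor targets. On the log2 CPM scale, relative to all libraries, their mean was 0.318 in Scramble 3, and the nearest other library 3 was at 0.0723, a gap of 0.758 of the whole range. Scramble 1 and 2 were at 0.369 and 0.271, so library 3 lay between the other libraries of its own line. It was the 1 outlying library among 56 groups of libraries checked, and chance alone would flag about 1 in 20 groups.

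In 2 lists and 2 genes 1 line went against the 4 others, and each of these differences in direction was not tested as such. The search took only lists with larger median differences and marked genes that were called. The median chaperone gene of the endoplasmic reticulum was 0.0509 higher in library 3 of KO than in its other pair, and lower in the 4 other lines. This held for the median only, since library 3 of KO had a list mean of −0.50, below the −0.40 and −0.39 of its other libraries, and library 3 had the lowest mean in the 4 other lines too. HSPA5 in KO was 0.18 higher, also against the 4 others. The median replication-dependent histone gene lay at 0.0226 in KO_S47A against the mean of the other pair, but at −0.32 and −0.02 against libraries 1 and 2 singly, and in the 4 other lines it was above 0 against both. KLK3 was at −0.0205 in Scramble and higher in library 3 of the 4 others. TMPRSS2, which was not called and so fell outside the search, was 0.37 higher in library 3 of KO_S47A and lower in the 4 others.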

How the results depend on the processing

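For libraries 3 minus the others, 5243 (without KO_S404A 3) to 7106 (without KO_S404A 2) genes were called when 1 library was left out, and 5042 to 6918 under the other alternatives (RLE size factors, 3304 higher and 3260 lower, no filter, a 3-level number, library 1 or 2 alone as reference, a line left out, and DESeq2). Of 3172 values of the 122 named genes under these alternatives 0 reversed and 0 moved by over 1 SD, that of the gene's differences per line. These counts lend no support. Most of the values (1830 with 1 library and 610 with a line left out) keep most libraries of the main fit, so they could hardly fail. The genes were also named from lists drawn with earlier results known, or for their size in this contrast. For libraries 2 minus 1 the count was 0 throughout. For the line by library 3 term it was 0 to 690 with 1 library left out, 1 without the filter and 507 without KO_S404A.

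Any difference among lines was called for 338 genes, and for 142 (without Scramble 2) to 538 (without KO_S47A 3) with 1 library left out. It was called for 1076 by DESeq2 and 2518 with only libraries 1 and 2. With the replicate block 3256 genes were called, and all 338 were among them. Deviations from line means correlated at 0.404 to 0.675 between libraries 3, but at 0.0197 to 0.331 between libraries 2 and 0.126 to 0.499 between libraries 1. Each library correlated best with its own number in 5 of 5, 0 of 5 and 4 of 5 cases for numbers 3, 2 and 1. This comes from the data and not from the design. For libraries 3 it restates the values that the split was drawn from. Centring on the 3 libraries of a line also makes libraries 1 and 2 carry, on average, the opposite of library 3. The numbers were not taken to pair samples.

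Genes near 1 CPM, such as LAMP3 and most histones, rest on few counts.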
